A study of Mus musculus with 21 samples.

Results

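Naive mouse CD8 T cells were activated and then left for 5 days with no added cytokine, and the change between day 3 and day 5 of that culture is described here gene by gene. The OT1 cells, from the mouse line whose CD8 T cells carry a transgenic T cell receptor against an ovalbumin peptide, were activated on day 0 with beads coated with anti-CD3 and anti-CD28. One single-cell RNA-seq library each was made at day 3 and at day 5 from the culture that got the beads and no exogenous cytokine, and all cells of both libraries that passed the quality filters were used: 4456 cells at day 3 and 6112 at day 5, together 10568 of the 106456 cells of the series. The naive, unstimulated library of day 0 (4777 cells) is the starting level against which reversion was measured. The same beads were used in 6 parallel cultures with IL-2, the variant IL-2v or IL-15 at 5 or 50 IU/mL, and their day 3 and day 5 libraries are used only as comparison. Genotype and age of the mice, bead removal and medium changes were not given in the sources used here, and the sort described in the labels is for tumour-infiltrating cells. Every condition is 1 library, so no test between conditions is possible: no p-value is given, differences are described by size, and every interval covers counting error only.

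A naive CD8 T cell is small and quiescent and is kept so by transcription factors such as KLF2, FOXO1, TCF1 (Tcf7) and LEF1 and by IL-7 and T cell receptor tone. Signalling through the receptor and CD28 induces MYC, IRF4 and HIF1a, switches metabolism to aerobic glycolysis, turns on sterol and fatty acid synthesis for new membrane, induces the high-affinity IL-2 receptor and starts rapid division. Continued division normally depends on IL-2 family cytokines acting through STAT5. The number of living cells was not measured in these files, so a contraction of the population as such cannot be read from them. What they show is how far the transcriptome moved back.

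The 3 libraries held 18468030 (naive), 22249358 (day 3) and 25673180 (day 5) unique molecular identifiers (UMIs, each a counted RNA molecule) with medians of 3799, 4551 and 3751 UMIs and 1431, 1623 and 1407 genes per cell. Over the 21 libraries of the series the medians ranged from 3016 to 5065 UMIs. Mitochondrial transcripts took 4.25%, 4.82% and 3.86% of UMIs. The day 3 and day 5 libraries shared 9 cell barcodes, 0.202% of the smaller library. The labelled cell type was present throughout: the 7 T cell markers summed to 5722 CPM (UMIs scaled to 1000000 per library) in naive cells, 5690 CPM at day 3 and 8319 CPM at day 5, and 71% of day 3 and 79.8% of day 5 cells had a Cd8b1 UMI when every cell was thinned to 2000 UMIs. A Cd4 UMI, which CD8 T cells should lack, was found in 0.559%, 0.377% and 0.0833% of thinned cells. That share is a guide to background only for genes as sparse as Cd4. An Ighm UMI was found in 48.9%, 69.6% and 53.1% of thinned cells. The 7 B cell markers summed to 414, 672 and 410 CPM, of which Ighm made up 377, 644 and 393 CPM, while Ms4a1 and Pax5 were at 0 at day 3 and day 5. Lyz2, Cd14, Csf1r and Adgre1 of the myeloid list were at 0 at both times too (list sums 118.6 and 92.7 CPM, nearly all Cst3), Trdc made up nearly all of the gamma delta list (257, 108 and 209 CPM), and Ncr1 was at 0 in all 3 libraries. The list sums were highest at day 3 for the B cell and myeloid lists and lowest at day 3 for Trdc. With cells that carried 2 or more markers of other lineages, or Cd4 without Cd8, left out (24.4%, 44.2% and 27.6% of cells), the counts of genes given next were 532 lower and 211 higher. The markers were those of B, myeloid, NK and erythroid cells, counted without thinning. Ighm and Cst3 made up most of their UMIs, so these are not shares of cells of other lineages. Cells with more UMIs also meet such a rule more easily.

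Of 5785 genes with at least 20 CPM at day 3 or day 5, 548 were at least 2-fold lower at day 5 (9.47%) and 209 were at least 2-fold higher (3.61%). Differences are on the log2(CPM + 1) scale throughout, and in this text a gene fell or rose when it passed 2-fold. The median over all tested genes was 0.00. Falls made up 72.4% of all calls. With TMM scaling, which assumes that most genes do not change, the median of all genes was 0.12 and the calls were 484 lower and 297 higher, 62.0% lower. Of the 548 genes that fell, 432 had been raised at least 2-fold between the naive library and day 3. The activation contrast and the day 5 contrast share the day 3 library, so this count is a description of 3 libraries and not a relation between independent measurements.

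Reversal was wider for induction than for repression. Activation had raised 684 of 6171 tested genes at least 2-fold by day 3 (11.1%) and lowered 513 (8.31%). Of the raised genes 432 (63.2%) then fell at least 2-fold by day 5, and of the lowered genes 113 (22.03%) rose at least 2-fold, 96 of which reached 20 CPM at day 3 or day 5. Recovery is the share of the day 3 change that was undone by day 5. Its median was 69.1% over raised genes (quartiles 46.9% and 87.9%) and 41.0% over lowered genes (quartiles 17.1% and 68.5%). The gap was narrower with TMM scaling (62.4% and 52.4%) and when cells with UMIs of Mki67 or Top2a were left out (53.3% and 41.8%). The induced changes were also the larger ones at day 3: the median was 1.75 for the raised and -1.27 for the lowered genes, and at day 5 the same genes stood at 0.64 and -0.77 from naive. Among the raised genes 239 were within 25 percentage points of full recovery, 43 had gone past the naive level by more than that, 317 had partly reverted (25% to 75%), 55 were kept (under 25%) and 30 extended their rise. Among the lowered genes 86 were back, 20 were past naive, 237 had partly reverted, 102 were kept and 68 were lowered further. At day 5, 207 of the raised genes were still at least 2-fold above naive and 170 of the lowered still at least 2-fold below. Over all 5770 genes tested in the contrast of day 5 with naive cells, 3.54% were at least 2-fold above naive and 4.85% at least 2-fold below.

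**Figure D1:**
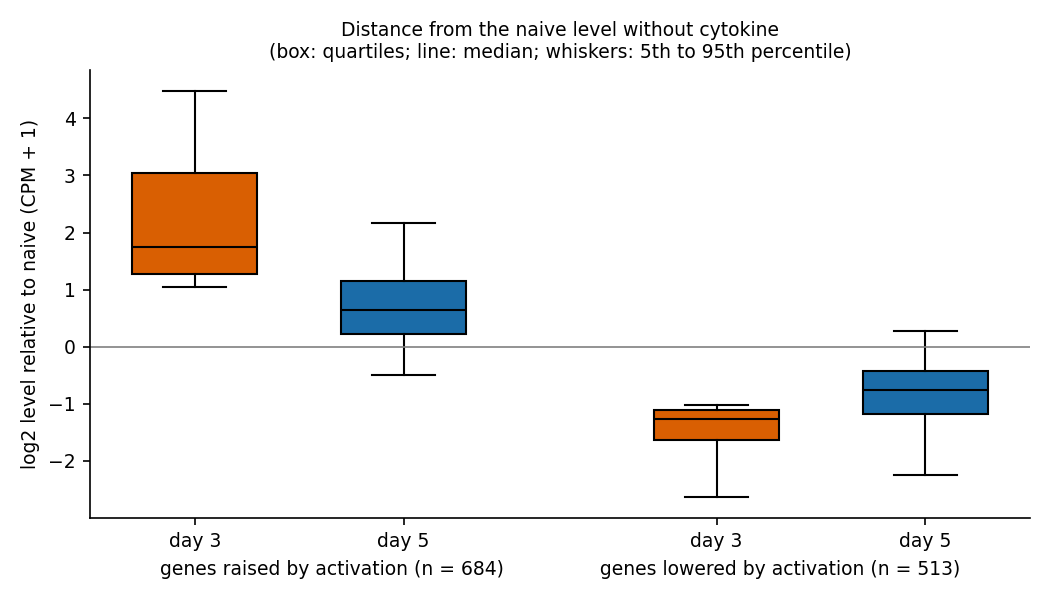
Log2 level relative to naive cells, on the log2(CPM + 1) scale, of the 684 genes raised and the 513 genes lowered at least 2-fold by day 3, at day 3 and at day 5 without cytokine. Boxes give quartiles, the line the median and whiskers the 5th to 95th percentile over genes. Raised genes came down from a median of 1.75 to 0.64, while lowered genes came up from -1.27 to -0.77.

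Over 5495 genes the day 5 library lay at a root mean square log2 distance of 0.620 from naive cells, against 0.986 for the day 3 library, and the distance between day 5 and day 3 was 0.747. Of the 20 activated libraries only 1 lay nearer to naive cells, the day 10 culture with IL-15 at 5 IU/mL (0.487). The day 5 culture with IL-15 at 5 IU/mL followed at 0.664.

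The 31 lists of pathway and cell state genes were sorted into 4 kinds by the calls of their members. G1/S, G2 and mitosis, sterol, glycolysis, fatty acid and hypoxia lists fell in most or in at least 50% of their tested members. Lists of naive state, interferon response and effector genes contained more members that rose than fell. Nuclear-encoded respiratory chain, proteasome, fatty acid oxidation, MHC class I, p53 target, GIMAP and T cell receptor lists had 0 members past 2-fold in either direction. Over all tested genes 9.47% fell and 3.61% rose, so 0 calls among 8 GIMAP, 10 p53 target or 13 MHC class I genes says little. Below 2-fold these lists were not alike. All 8 GIMAP genes were higher at day 5 (median 0.50), and 12 of 15 fatty acid oxidation genes were lower (median -0.48). Amino acid and one-carbon metabolism and the antioxidant list had members that fell (6 of 16 and 4 of 15) and 0 that rose, and the remaining lists had at most 3 calls or calls in both directions. Of the 432 genes that were raised and then fell, 82 belonged to the lists of G1/S, of G2 and mitosis or of cyclins and CDK inhibitors, 44 to the glycolysis, hypoxia, sterol and fatty acid lists, 27 to other lists and 279 to none.

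**Figure D2:**
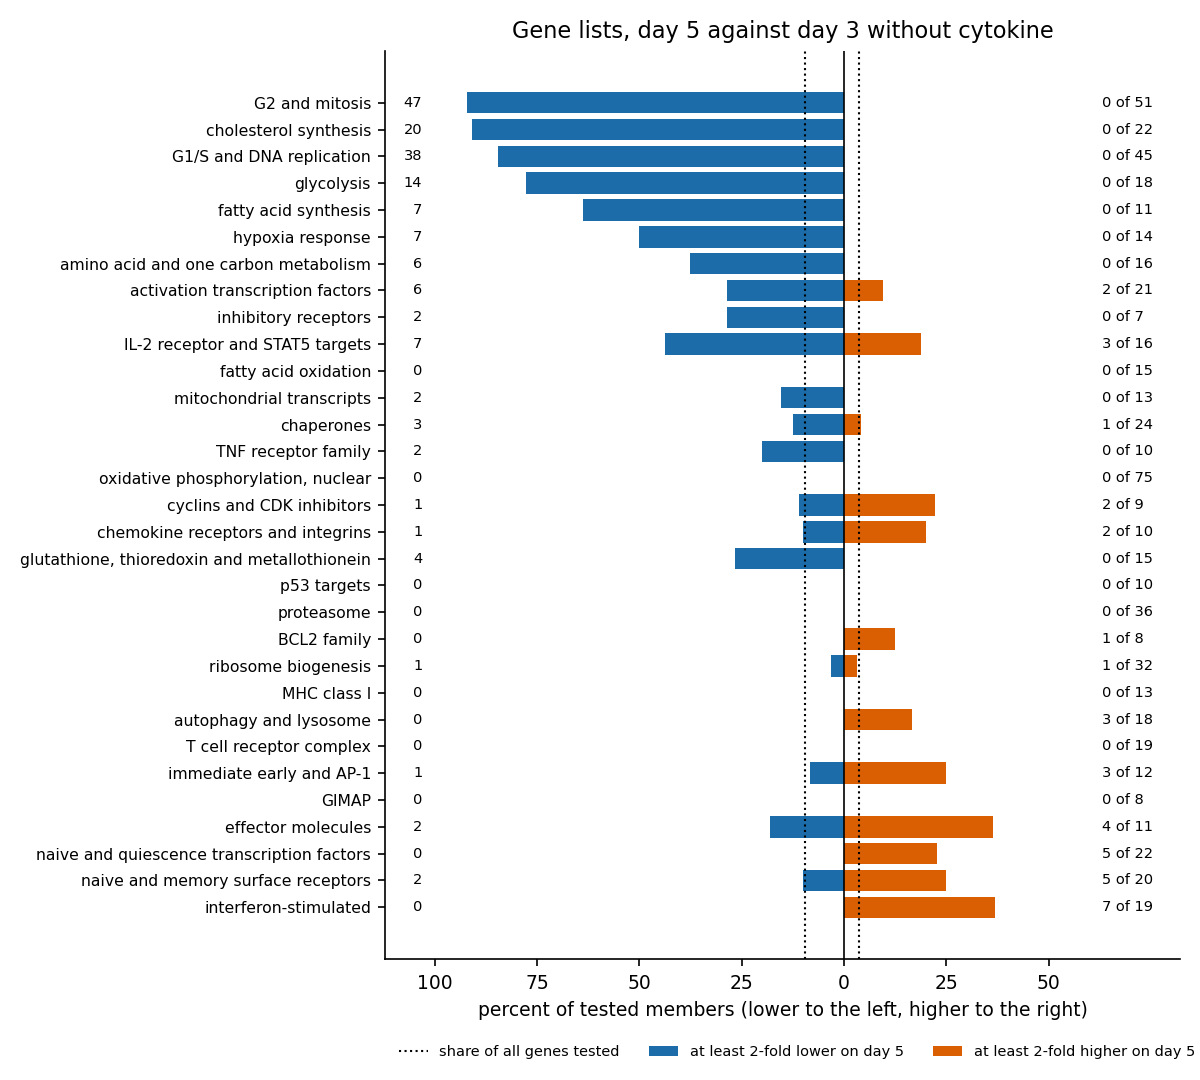
Percent of the tested members of each of the 31 gene lists that were at least 2-fold lower (left) or higher (right) at day 5 than at day 3 without cytokine, ordered by the list median, with the member counts in digits. Dotted lines mark the shares over all 5785 tested genes, 9.47% lower and 3.61% higher, and the G2 and mitosis list reaches 47 of 51 members lower.

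Genes of the cell cycle fell together. Of 51 tested genes of G2 and mitosis 47 fell and 0 rose, with a list median of -2.68. Of 45 G1/S and DNA replication genes 38 fell and 0 rose, with a median of -1.94. Mki67, the proliferation marker, stood at 15.2 CPM in naive cells, 379 CPM at day 3 and 36.3 CPM at day 5. That is -3.35 from day 3 to day 5, and day 5 was still above naive. The exact counting interval, which here and below is that of the plain CPM ratio, was -3.48 to -3.28 in log2. Kif11, the kinesin that separates spindle poles, stood at 4.76 CPM in naive cells, 105 CPM at day 3 and 10.2 CPM at day 5, a difference of -3.24. Plk1, a mitotic kinase, went from 60.8 to 6.35 CPM and Cdk1, the mitotic cyclin-dependent kinase, from 118 to 14.7 CPM, both against 2.54 and 3.95 CPM in naive cells. All 4 mitotic genes were low in naive cells, high at day 3 and nearer to naive at day 5 without reaching it.

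Replication genes came closer to their starting level. Uhrf1, which carries DNA methylation through replication, stood at 5.41 CPM in naive cells, 104 CPM at day 3 and 7.17 CPM at day 5, a difference of -3.69. Mcm5, a subunit of the replicative helicase, stood at 16.5 CPM in naive cells, 146 CPM at day 3 and 18.2 CPM at day 5. Rrm2, the regulated subunit of ribonucleotide reductase, was the less complete example: its level of 17 CPM at day 5 lay between 6.5 CPM in naive cells and 117 CPM at day 3. At day 5 the median distance from naive was 0.37 for the G1/S list and 1.06 for the G2 and mitosis list, and 6 and 29 of their members were still at least 2-fold above naive. Outside the proliferation lists Cdk2 fell from 29.3 to 6.43 CPM. Cdkn1b, the inhibitor p27 that holds cells in quiescence, rose from 86 to 197 CPM. Ccnd2, a D-type cyclin, rose as well, from 229 to 550.5 CPM, and stood at 485 CPM in naive cells.

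The share of cells with a Mki67 or Top2a UMI, after thinning to 2000 UMIs, was 1.83% (exact 95% interval 1.46% to 2.27%) in naive cells, 51.1% (49.6% to 52.6%) at day 3 and 7.85% (7.18% to 8.56%) at day 5. Without thinning it was 3.01%, 59.96% and 13.8%. Thinning left out 306, 212 and 109 cells with fewer UMIs. Per cell, the G2 and mitosis list gave a median of 2, 10 and 3 UMIs of 2000.

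Genes of G2 and mitosis are known to share promoter elements, the cell cycle homology region (CHR, TTTGAA) bound by MuvB complexes and CCAAT boxes bound by NF-Y, and the windows of 2 members that fell most are shown for that reason. Windows run from 250 bases before to 50 bases after the RefSeq transcription start in GRCm38.p6, printed 5′ to 3′ along the gene's strand, with matches on either strand (TTTGAA or TTCAAA) in capitals. Mki67 lies on the minus strand at chr7:135716330-135716629 and has 2 matches, starting 116 and 98 bases before the start. Kif11 lies on the plus strand at chr19:37376132-37376431 and has 1, starting 19 bases before it.
Mki67: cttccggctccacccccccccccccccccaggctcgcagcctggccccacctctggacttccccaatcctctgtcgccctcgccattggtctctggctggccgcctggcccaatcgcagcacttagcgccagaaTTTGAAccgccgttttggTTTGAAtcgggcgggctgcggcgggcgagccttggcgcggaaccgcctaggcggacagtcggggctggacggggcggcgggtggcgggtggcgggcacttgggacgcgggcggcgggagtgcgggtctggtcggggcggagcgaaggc
Kif11: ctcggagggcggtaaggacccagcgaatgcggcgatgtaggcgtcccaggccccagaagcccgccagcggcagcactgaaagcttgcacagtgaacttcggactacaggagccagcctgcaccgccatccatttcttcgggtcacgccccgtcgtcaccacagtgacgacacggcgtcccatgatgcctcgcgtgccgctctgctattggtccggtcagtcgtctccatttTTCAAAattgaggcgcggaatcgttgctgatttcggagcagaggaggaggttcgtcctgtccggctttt
Of the 47 members that fell, 41 had a window in the table (the first listed of each gene). A CHR match lay in 30 of them (73.2%), against 18.1% of 27025 genes with a window and 12.5% of the 4662 tested genes with one. CCAAT or ATTGG lay in 33 of 41 (80.5%), against 37.9% and 39.4%. In the 32 G1/S members with a window that fell, the E2F letters TTGGCGC or TTCGCGC, on either strand, lay in 10 (31.3%), against 3.98% and 8.86%, and a CHR match in 5 (15.6%). A match is a description of these letters and not of a bound site.

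Glycolysis genes fell widely too. Of 18 tested glycolysis genes 14 fell and 0 rose, with a median of -1.53, and the summed level of the list went from 1616 CPM in naive cells to 13309.8 CPM at day 3 and 2990.2 CPM at day 5. Pgk1, phosphoglycerate kinase at chrX:106187100-106203699, stood at 102 CPM in naive cells, 1984 CPM at day 3 and 179.6 CPM at day 5, a difference of -3.46 (counting interval -3.51 to -3.42). Aldoc, an aldolase isoform, stood at 1.03 CPM in naive cells, 108 CPM at day 3 and 6.89 CPM at day 5, a difference of -3.79. Both were far above naive at day 3, and at day 5 Pgk1 was within 2-fold of naive and Aldoc was not. Tpi1, triose phosphate isomerase, fell from 771 to 81.6 CPM and Pkm, pyruvate kinase, from 1555 to 245 CPM. Ldha, which makes lactate, fell from 1295 to 379 CPM against 257 CPM in naive cells. Gapdh stood at 276 CPM in naive cells, 2982 CPM at day 3 and 895 CPM at day 5, so it had come down and remained more than 2-fold above naive. Eno1 was below its naive level at day 5, with 139 CPM in naive cells, 599 CPM at day 3 and 85.2 CPM at day 5. Eno1, Gapdh and Mif have near-identical copies in the genome, so their reads may have been split or lost in counting. The 4 tested members that stayed within 2-fold were Slc2a1, Slc2a3, Slc16a1 and Hk1, 3 of them transporters of glucose or lactate, with differences of -0.81, -0.68, -0.78 and -0.53.

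After thinning, the median cell carried 3 glycolysis UMIs of 2000 in the naive library, 25 at day 3 and 5 at day 5. The share of cells above the naive 95th percentile of 7 UMIs was 98.6% at day 3 and 24.2% at day 5. A Pgk1 UMI was found in 17.4% of naive cells, 95.4% at day 3 and 27.1% at day 5. The glycolysis list was level across cell cycle state at day 3, with a median of 25 UMIs in cells with a Mki67 or Top2a UMI and 26 in those without.

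**Figure D3:**
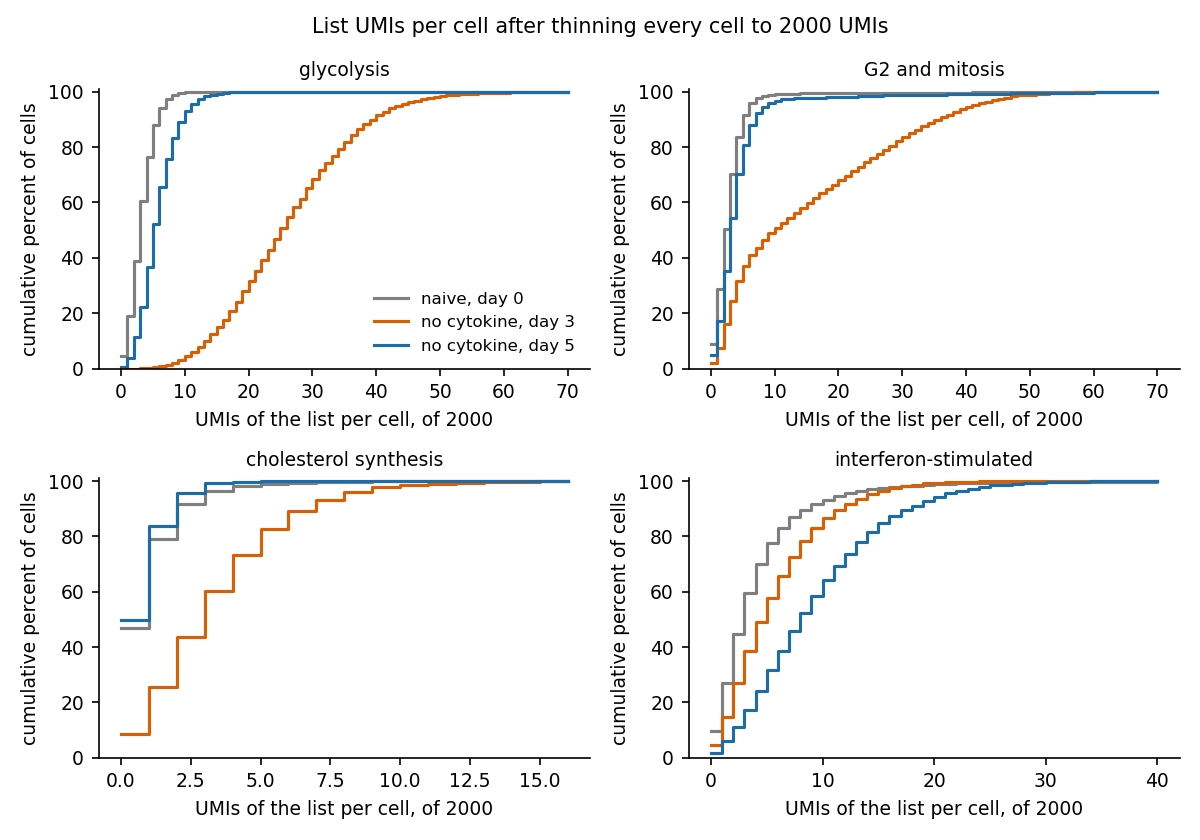
Cumulative percent of cells against the number of UMIs of a list per cell, after thinning every cell to 2000 UMIs, for naive cells, day 3 and day 5. The glycolysis curve of the whole population moved, from a median of 25 UMIs at day 3 to 5 at day 5, whereas the G2 and mitosis curve at day 3 has a long upper tail that is nearly gone at day 5, and the interferon-stimulated curve at day 5 lies to the right of both others.

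The hypoxia list, targets of HIF1a and its relatives, fell in 7 of 14 tested members and rose in 0, with a median of -1.04. Bnip3, a mitophagy receptor, stood at 2.38 CPM in naive cells, 78.8 CPM at day 3 and 14.8 CPM at day 5. Mif, a cytokine stored in T cells, went from 1448 to 485 CPM, and Egln1, the oxygen-sensing prolyl hydroxylase, from 65.8 to 24.7 CPM. Mif and Egln1 were within 2-fold of naive at day 5, Bnip3 was not, and 3 members of the list were still at least 2-fold above naive. Hif1a itself was at 67 CPM in naive cells, 304 CPM at day 3 and 218 CPM at day 5, a difference of only -0.47. The core of the hypoxia response element is ACGTG (searched on both strands, and contained in the E-box). The Pgk1 window, on the plus strand at chrX:106186850-106187149, is shown because Pgk1 was, with Aldoc, one of the glycolysis genes among the 10 lowest differences, and it holds 2 such matches, starting 150 and 131 bases before the start, in capitals.
Pgk1: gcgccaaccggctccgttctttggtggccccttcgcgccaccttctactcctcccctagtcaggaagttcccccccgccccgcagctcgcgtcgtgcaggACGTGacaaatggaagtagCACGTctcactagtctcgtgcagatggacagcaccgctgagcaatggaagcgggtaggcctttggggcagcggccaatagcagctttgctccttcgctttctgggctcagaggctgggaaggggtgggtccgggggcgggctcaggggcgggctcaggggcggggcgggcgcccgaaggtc
The letters lay in 7 of the 14 glycolysis windows of genes that fell (50.0%), against 19.7% of all genes with a window and 27.9% of the tested genes. This motif was added after the values had been seen.

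Sterol synthesis came back to its naive level or slightly below it. Of 22 tested genes of cholesterol synthesis and uptake 20 fell and 0 rose, with a median of -2.30, and at day 5 the list median was -0.38 from naive and no member was still 2-fold above it. Fdps, which makes farnesyl pyrophosphate, stood at 38.1 CPM in naive cells, 334 CPM at day 3 and 26.1 CPM at day 5, a difference of -3.63 (-3.80 to -3.57). Its day 5 value was the lowest of the 3 libraries. Insig1, a sterol-responsive brake on the pathway, followed at 12.9, 61 and 7.32 CPM, and Srebf2, the transcription factor that drives the pathway, at 67.5, 139 and 49.3 CPM. Ebp was the 1 tested member that was not lower at day 5, at 63.6 and 70.7 CPM, and Sc5d was lower by less than 2-fold (-0.71). After thinning, 39.6% of day 3 cells and 0.866% of day 5 cells had more list UMIs than the naive 95th percentile of 3. The median cell carried 1 list UMI in the naive library, 3 at day 3 and 1 at day 5.

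Sterol genes are known to be driven by SREBP at sterol regulatory elements together with NF-Y at CCAAT boxes. The window of Hmgcs1, which makes the HMG-CoA of the pathway and went from 158 to 22.1 CPM, is shown for this. It lies on the plus strand at chr13:119690101-119690400 and has 1 match to the SRE letters CACCCCA, 136 bases before the start, and 4 to CCAAT or ATTGG, in capitals.
Hmgcs1: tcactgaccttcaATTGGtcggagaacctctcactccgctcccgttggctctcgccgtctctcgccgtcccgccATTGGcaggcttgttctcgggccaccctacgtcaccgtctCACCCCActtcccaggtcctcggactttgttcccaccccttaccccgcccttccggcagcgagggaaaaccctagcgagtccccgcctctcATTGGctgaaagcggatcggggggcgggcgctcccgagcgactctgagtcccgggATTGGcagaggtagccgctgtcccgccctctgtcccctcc
Among the 20 genes that fell, 13 had a window. CCAAT lay in 11 of them (84.6%), against 39.4% of tested genes, and CACCCCA in 3 (23.1%), against 7.27%.

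Fatty acid synthesis fell in 7 of 11 tested members and rose in 0, with a median of -1.21. Of these 7, 4 had been raised at least 2-fold by day 3. Scd2, a desaturase that makes monounsaturated fatty acids, stood at 32.1 CPM in naive cells, 330.4 CPM at day 3 and 51.3 CPM at day 5. Scd1, its isoform, had no UMI in the naive library, 31.1 CPM at day 3 and 0.506 CPM at day 5. Fasn, fatty acid synthase, went from 44.1 to 19.6 CPM, below the 34.4 CPM of naive cells. Fatty acid oxidation showed no such change: 0 of 15 tested genes passed 2-fold in either direction, with a median of -0.48. Amino acid and one-carbon metabolism fell in 6 of 16 and rose in 0. Only 1 of the 6 had been raised at least 2-fold by day 3, so most of these falls did not undo a 2-fold rise. The 6 included Psat1 of serine synthesis (67.5 to 13.1 CPM) and the amino acid transporter Slc7a5 (25.2 to 6.23 CPM). Atf4, the transcription factor of the amino acid response (113 to 46.4 CPM), was among them too.

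None of 75 nuclear genes of oxidative phosphorylation passed 2-fold (median -0.17) and none of 36 proteasome genes did (median 0.02). Of the 13 respiratory chain transcripts encoded in the mitochondrial genome 2 fell and 0 rose, with a median of -0.40. These were mt-Nd1, from 3436 to 1556 CPM, and mt-Nd6, from 142 to 31.6 CPM, both subunits of complex I. Among cells with at most 5% mitochondrial UMIs 1 of the 13 fell. In ribosome biogenesis 1 of 32 fell, Npm1 (2164 to 1075 CPM), and 1 rose, Ddx21 (99.4 to 265 CPM). Chaperones fell in 3 of 24 (12.5%), Canx, Hsp90ab1 and Tcp1, and rose in 1 (4.17%), Hsph1. Over all tested genes 9.47% fell and 3.61% rose, so the chaperone shares were near those of all genes. The ribosome biogenesis shares, 3.1% each way, were near or below them. With TMM scaling 0 of 32 genes of ribosome biogenesis and 1 of 24 chaperones fell. Hsp90ab1, the constitutive HSP90, stood at 1130.4 CPM in naive cells, 2719.9 CPM at day 3 and 1297 CPM at day 5. The antioxidant list fell in 4 of 15 and rose in 0. In that list Mt1 and Mt2, the metal-binding metallothioneins, stood at 0.487 and 0 CPM in naive cells, 265 and 53.5 CPM at day 3 and 25.8 and 4.28 CPM at day 5, and Prdx4 and Sod1 were the other 2 (73.5% of Mt2 overlaps another gene on the opposite strand, and Sod1 has a near-identical copy).

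The IL-2 axis and the activation regulators reversed in part. Among 16 IL-2 receptor and STAT5 target genes 7 fell and 3 rose, with a median of -0.61. Il2ra, the high-affinity chain of the IL-2 receptor, stood at 5.63 CPM in naive cells, 149 CPM at day 3 and 34 CPM at day 5, a difference of -2.10, and a UMI was found in 1.1%, 23.9% and 6.18% of thinned cells. Il2rb, the chain shared with IL-15, stood at 87.6 CPM in naive cells, 355 CPM at day 3 and 142 CPM at day 5. Il2ra and Il2rb were highest at day 3, and Il2ra kept a level several times that of naive cells. The common chain Il2rg moved the other way, from 190.3 to 386 CPM against 311 CPM in naive cells, and Jak1, the kinase bound to Il2rb, from 235 to 474 CPM against 470.2 CPM. Ccnd2, given above, was the third that rose. Of the 16 genes, 1 rose with 10 CPM in place of 1 added before the logarithm, and 2 rose without cells with markers of other lineages. Socs2, Pim1 and Pim2, targets of STAT5, and Tnfrsf4 (OX40) fell, Socs2 from 37 to 8.26 CPM.

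Gzmb, the cytotoxic protease granzyme B at chr14:56258838-56262260, stood at 6.5 CPM in naive cells, 642 CPM at day 3 and 47.2 CPM at day 5. The difference between day 3 and day 5 was -3.74 (-3.85 to -3.68), among the 10 lowest of genes with at least 100 CPM. The share of thinned cells with a Gzmb UMI was 0.738%, 53% and 4.9%, and the mean number of UMIs in those cells was 1.58, 2.21 and 1.49. At day 5 it was thus seen in few cells and at fewer molecules in each than at day 3.

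Of 21 tested activation transcription factors 6 fell and 2 rose, with a median of -0.65. The balance depended on the setting: 5 of 21 fell and 4 rose with TMM scaling. Among cells with at most 5% mitochondrial UMIs 5 of 20 fell and 4 rose. Irf4, which scales with receptor signal strength, stood at 1.08 CPM in naive cells, 39.9 CPM at day 3 and 12.3 CPM at day 5. Irf8 stood at 4.6 CPM in naive cells, 87.5 CPM at day 3 and 20.6 CPM at day 5. Prdm1 (BLIMP1), a driver of effector differentiation, stood at 3.14 CPM in naive cells, 24.5 CPM at day 3 and 4.32 CPM at day 5. Each of the 3 was highest at day 3 and at day 5 lay above naive. Zbtb32, Bhlhe40 and Batf3 were the other 3 that fell, Zbtb32 by the most (-3.18). Relb and Nfkb2, the non-canonical NF-kB pair, rose, Relb from 10.7 to 40.1 CPM and Nfkb2 from 13.3 to 30.2 CPM. Myc, the growth regulator, was at 57.2 CPM in naive cells, 104 CPM at day 3 and 55.1 CPM at day 5, a difference of -0.91 that falls just short of 2-fold, and Batf and Tbx21 differed by -0.38 and -0.65.

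Of 7 tested inhibitory receptors 2 fell, Lag3 and Btla, and 0 rose. Both calls were narrow: 0 of 6 fell among cells with at most 5% mitochondrial UMIs, and 0 of 7 with 10 CPM in place of 1 added before the logarithm. Ctla4, the inhibitory receptor that competes with CD28, stood at 5.04 CPM in naive cells, 358 CPM at day 3 and 198 CPM at day 5, a difference of -0.85, and was found in 47.2% of day 3 and 31.5% of day 5 thinned cells. It had therefore come down by less than 2-fold and lay far above naive. Lag3 stood at 1.08 CPM in naive cells, 84.9 CPM at day 3 and 38.8 CPM at day 5, a difference of -1.11. Tnfrsf9 (4-1BB), a costimulatory receptor, stood at 6.88 CPM in naive cells, 83.2 CPM at day 3 and 10.3 CPM at day 5, and Tnfrsf4 at 8.93 CPM in naive cells, 40.5 CPM at day 3 and 7.52 CPM at day 5. Both of these were near naive at day 5. The other 8 of 10 tested genes of the TNF receptor family list did not pass 2-fold, Icos (0.05) and Tnfrsf18 (-0.31) among them. Icos was counted in this list but is not a TNF receptor.

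**Figure D4:**
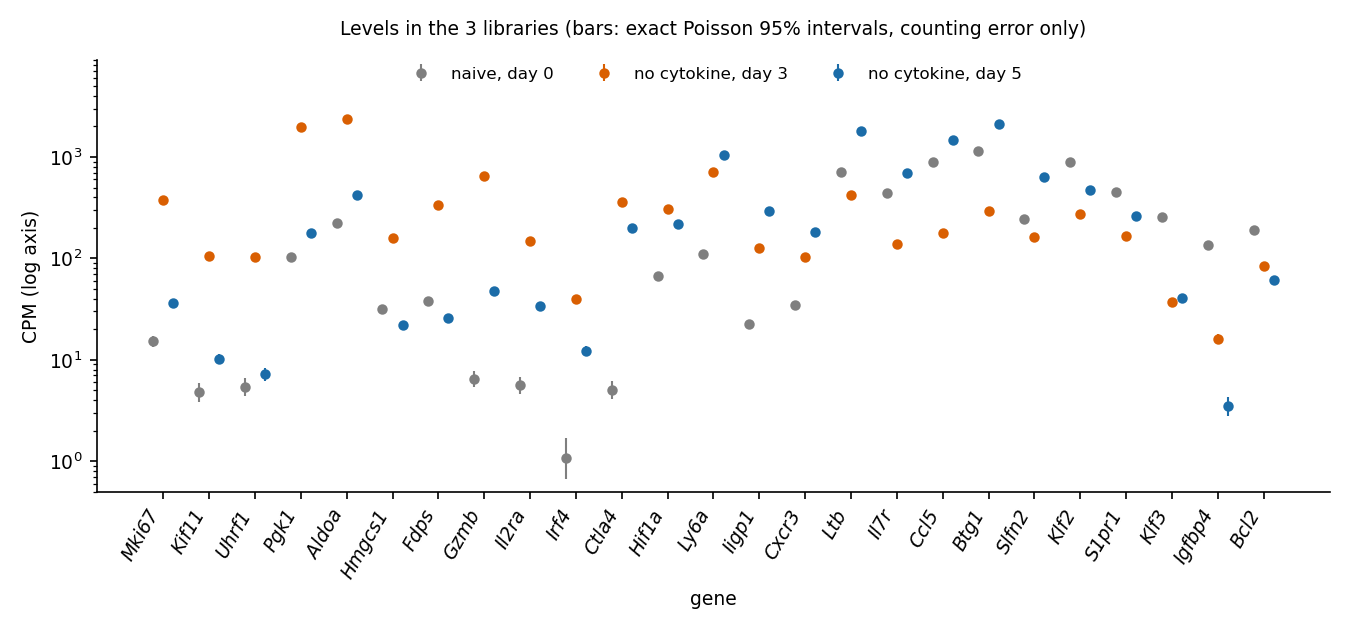
CPM on a log axis of 25 genes in the naive, day 3 and day 5 libraries, with exact Poisson 95% intervals of the counts. All are named in the text except Aldoa, a different aldolase gene from Aldoc. From left to right come genes that were high at day 3 only, such as Pgk1, genes that stayed above naive, such as Ctla4 and Ly6a, genes that were lowest at day 3, such as Il7r and Ccl5, and genes that did not come back, such as Klf3 and Bcl2.

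The 10 genes that rose most among those with at least 100 CPM included Ccl5, Ltb, Il7r, Btg1 and Nfkbia. Ccl5, a chemokine of memory and effector CD8 T cells at chr11:83525778-83530518, stood at 885 CPM in naive cells, 177 CPM at day 3 and 1482 CPM at day 5. The difference of 3.06 (3.02 to 3.11) was the highest among genes with at least 100 CPM. The naive and day 5 levels were spread differently over cells: in the naive library 10.1% of thinned cells had a Ccl5 UMI, with a mean of 16.7 UMIs each, at day 3 13.5% with 2.69, and at day 5 44% with 6.76. A return in CPM was therefore no return to the naive distribution over cells. Ltb, lymphotoxin beta, stood at 714 CPM in naive cells, 425 CPM at day 3 and 1820.1 CPM at day 5 and was found in 56.5% of day 3 and 95.1% of day 5 thinned cells.

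Il7r, the receptor chain for the survival cytokine IL-7, stood at 446 CPM in naive cells, 137 CPM at day 3 and 699.8 CPM at day 5, a difference of 2.34 (2.29 to 2.41). It was detected in 46.2%, 23% and 68.1% of thinned cells, lowest at day 3 and highest at day 5. Btg1, an anti-proliferative factor that promotes mRNA decay in quiescent T cells, stood at 1140.3 CPM in naive cells, 293 CPM at day 3 and 2106 CPM at day 5 and was detected in 85.5%, 43% and 95.6% of cells. Nfkbia, the inhibitor IkBa, stood at 149 CPM in naive cells, 58.2 CPM at day 3 and 233 CPM at day 5. For these 3 the day 5 level was above the naive level as well. Of the 10 highest genes the remaining 5 were Ifi214, Ifi206, Ifi209, Gm4070 and Gm30054. Gm4070 and Ifi209 have a near-identical copy, and 82.9% of Gm30054 overlaps Fam149b on the other strand, so their reads may be uncertain.

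The naive programme returned unevenly. Among 22 tested genes of the list of naive and quiescence transcription factors 5 rose and 0 fell, with a median of 0.53. The 5 were Btg1, Slfn2, Id3, Cdkn1b and Foxp1. The list also holds quiescence genes that are not transcription factors, Btg1, Slfn2 and Cdkn1b among them. Activation had lowered 5 members of the list at least 2-fold, and 1 of these rose at least 2-fold by day 5. Slfn2, which is required for T cell quiescence, stood at 243 CPM in naive cells, 164 CPM at day 3 and 635 CPM at day 5, and Id3 at 122 CPM in naive cells, 74.7 CPM at day 3 and 224 CPM at day 5. Foxp1, which keeps naive cells quiescent, stood at 436 CPM in naive cells, 241 CPM at day 3 and 514 CPM at day 5. These were at or above their naive level at day 5. Klf2, which controls lymph node homing, was at 883 CPM in naive cells, 277 CPM at day 3 and 471 CPM at day 5, a difference of 0.76 that left it below naive, and Klf3 at 259 CPM in naive cells, 37.4 CPM at day 3 and 40.3 CPM at day 5, close to its day 3 level. Tcf7 was at 471 CPM in naive cells, 256 CPM at day 3 and 348 CPM at day 5 and Lef1 at 467 CPM in naive cells, 217 CPM at day 3 and 331 CPM at day 5, with differences of 0.44 and 0.61, both between the day 3 and the naive level.

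Surface receptors rose more often than they fell. Of 20 tested naive and memory receptors 5 rose (Il7r, Itgae, Ly6c2, Cd7 and Ms4a4b) and 2 fell (Il2rb and Cd44). These are 25% and 10%, against 3.61% and 9.47% over all tested genes, so the share that fell was near that of all genes. Itgae, the CD103 integrin chain, stood at 43.8 CPM in naive cells, 6.29 CPM at day 3 and 40.9 CPM at day 5. Cd7, a signalling receptor of T cells, stood at 122 CPM in naive cells, 78.6 CPM at day 3 and 182 CPM at day 5. Cd44, the classical activation marker, stood at 25.1 CPM in naive cells, 57.5 CPM at day 3 and 24.1 CPM at day 5, so its transcript was at the naive level at day 5. S1pr1, needed for egress from lymph nodes, was at 448, 165 and 265 CPM and Ccr7 at 241, 182 and 267 CPM. Of the T cell receptor list 0 of 19 passed 2-fold.

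Effector molecules moved in both directions. Of 11 tested effector genes 4 rose (Ccl4, Ccl5, Xcl1 and Ltb) and 2 fell (Gzmb and Gzma). Ccl4 stood at 3.57 CPM in naive cells, 2.11 CPM at day 3 and 35.6 CPM at day 5 and Xcl1 at 9.85 CPM in naive cells, 7.06 CPM at day 3 and 50.9 CPM at day 5, but both came from few cells: 1.85% and 2.27% of thinned cells at day 5, and the 1% of cells with most UMIs held 81.7% and 81.5% of their UMIs. The few cells that held most Gzma UMIs weighed heavily too. The 1% of cells with most Gzma UMIs held 98.8% of them in naive cells, 30.6% at day 3 and 90.2% at day 5. Cxcr6, a chemokine receptor of memory and effector cells, rose from 52.2 to 146 CPM.

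More interferon-stimulated genes rose than fell, and activation had moved them in both directions. Of 19 tested members 7 rose and 0 fell, with a median of 0.87. Activation had lowered 5 members of the list at least 2-fold, counted over the genes tested in that contrast, and these 5 rose at least 2-fold by day 5. Isg15, a ubiquitin-like interferon product, stood at 53.2 CPM in naive cells, 8.31 CPM at day 3 and 38.7 CPM at day 5, Rtp4 at 49.9 CPM in naive cells, 4.63 CPM at day 3 and 40.3 CPM at day 5 and Irf7, the amplifier of the type I response, at 52.2 CPM in naive cells, 16.7 CPM at day 3 and 41.5 CPM at day 5. These 3 were lowest at day 3 and returned towards naive. Others were higher at day 3 than in naive cells and higher again at day 5. Iigp1, an interferon-induced GTPase, stood at 22.3 CPM in naive cells, 127 CPM at day 3 and 292 CPM at day 5 and Ly6a (Sca-1) at 111 CPM in naive cells, 714 CPM at day 3 and 1042 CPM at day 5. Both were highest at day 5, with differences of 1.19 and 0.54, and of these Iigp1 passed 2-fold and Ly6a did not. Per thinned cell the list gave medians of 3, 5 and 8 UMIs.

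Genes raised by activation that had not reverted at all were few. Of the raised genes with at least 100 CPM at day 3 or day 5, 8 were named for the highest day 5 minus day 3 difference. They were Iigp1, Cxcr3, AW112010, Igtp, Samhd1, Ly6a, Gimap7 and Vmp1. Cxcr3, a chemokine receptor of effector and memory cells, stood at 35 CPM in naive cells, 102 CPM at day 3 and 181 CPM at day 5. Samhd1, a dNTP hydrolase, stood at 203 CPM in naive cells, 418 CPM at day 3 and 645 CPM at day 5. AW112010 stood at 407 CPM in naive cells, 992 CPM at day 3 and 1618 CPM at day 5 and Gimap7, a GTPase of lymphocytes, at 110.0 CPM in naive cells, 319 CPM at day 3 and 449 CPM at day 5. In each of these the 3 libraries were ordered naive, day 3, day 5 from low to high. Igtp and Vmp1, an interferon-induced GTPase and an autophagy protein, had the same order, with day 5 minus day 3 differences of 0.66 and 0.45.

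On the repressed side, only genes with at least 100 CPM in naive cells or at day 5 were ranked. Of those lowered by activation, the 8 with the lowest day 5 minus day 3 difference were Igfbp4, Dapl1, Bcl2, Atf7ip, Ppp2r5a, Txk, Tespa1 and Il6st. Igfbp4, a marker of naive CD8 T cells in mouse, stood at 137 CPM in naive cells, 16.1 CPM at day 3 and 3.51 CPM at day 5, a further difference of -1.93 (-2.55 to -1.87), below 20 CPM on both days and so not among the calls. Dapl1, another gene of naive T cells, stood at 630.3 CPM in naive cells, 227 CPM at day 3 and 107 CPM at day 5. Bcl2, the survival protein maintained by IL-7 and STAT5, stood at 191 CPM in naive cells, 84 CPM at day 3 and 60.8 CPM at day 5. The level of each of these 3 was lowest at day 5. Txk, a TEC family kinase, stayed flat at 55.3 and 52.9 CPM against 293 CPM in naive cells, and Il6st, the signal chain gp130, at 42 and 41.7 CPM against 132 CPM. The counting intervals of the Txk, Tespa1 and Il6st differences include 0. In the BCL2 family 1 of 8 tested genes passed 2-fold, the survival gene Mcl1, which rose from 143 to 290.5 CPM (0 of 8 in cells where neither Mki67 nor Top2a was counted, and with 10 CPM added before the logarithm), and the pro-apoptotic Bbc3, Bcl2l11 and Bax differed by -0.05, -0.12 and 0.23. Of 10 tested p53 targets 0 passed 2-fold.

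Fewer cycling cells accompany the change, so the comparison was repeated among cells in which neither Mki67 nor Top2a had been counted. There 274 genes were at least 2-fold lower and 203 higher, and the median over all tested genes was 0.12. The share of all tested genes that was called is not available for these cells. The list counts that follow therefore have no such share beside them. In the G2 and mitosis list 10 of 22 tested members then fell and 1 rose, with a median of -0.83, and in the G1/S list 4 of 23 fell (median -0.51). In all cells 51 and 45 members of these lists were tested. The cells were chosen by the absence of 2 proliferation genes, so a smaller fall of cell cycle genes is built into the choice. The metabolic lists divided. Glycolysis fell in 14 of 17 (median -1.59), cholesterol synthesis in 18 of 20 (median -2.06) and hypoxia in 7 of 14 (median -1.10). Fatty acid synthesis fell in 2 of 8 (median -0.41, against -1.21 over the 11 tested in all cells). Amino acid and one-carbon metabolism fell in 3 of 14 (median -0.38, against -0.66 over the 16 tested in all cells). The 20 CPM filter was applied anew in these cells, so these medians are not over the same genes as in all cells. Members under that level are not in the counts or medians, whatever their difference. Interferon-stimulated genes rose in 5 of 20 (median 0.49). Single genes divided too. The differences of Gzmb (-4.28), Pgk1 (-3.66), Fdps (-3.54), Il7r (2.08) and Ccl5 (2.58) still passed 2-fold. Iigp1 (0.53), Il2rg (0.89), Jak1 (0.72) and Ccnd2 (0.95) no longer did, so 0 genes of the IL-2 list rose in these cells, and Samhd1 and Igtp differed by 0.06 and 0.20. A cell in which neither was counted can still be dividing.

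The cultures with cytokine show which of these changes also occur when cytokine is present. From day 3 to day 5 the share of tested genes that were at least 2-fold lower was 11.6% with IL-2 at 5 IU/mL, 6.16% at 50 IU/mL, 8.30% and 3.41% with IL-15 at 5 and 50 IU/mL, and 1.97% and 0.495% with IL-2v at 5 and 50 IU/mL, against 9.47% without cytokine. The share that were at least 2-fold higher was 2.27% and 2.93% with IL-2, 1.09% and 0.857% with IL-15 and 1.43% and 2.08% with IL-2v, against 3.61% without. Of the 548 genes that fell without cytokine, 333 fell by more than in any of the 6 cultures, 60 were not 2-fold lower in any of them, and 5 were 2-fold lower in all. Of the 209 that rose, 166 rose by more than in any of the 6, 106 were not 2-fold higher in any, and 2 were in all. These genes were chosen by their change without cytokine, which favours that culture as the most extreme. Genes called in a culture with cytokine were not ranked in the same way.

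The lists differed in how far cytokine cultures followed. The G2 and mitosis median was -2.68 without cytokine and between -1.57 and 0.07 in the 6 cultures, and 45 of the 47 members that fell did so by more than in any of them. For cholesterol synthesis it was -2.30 against -2.03 to 0.02, with the lowest value in the culture with IL-15 at 5 IU/mL. For G1/S genes (-1.94 against -1.99 to -0.69), glycolysis (-1.53 against -1.70 to 0.51) and hypoxia (-1.04 against -1.23 to 1.003), the culture with IL-2 at 5 IU/mL had the lower median. The medians of these 3 lists without cytokine thus lay within the range over the cytokine cultures. Of the members that fell, 16 of 38 in G1/S, 5 of 14 in glycolysis and 3 of 7 in hypoxia did so by more than in any of the 6. Each is a smaller share than the 333 of 548 over all genes that fell, which were chosen in the same way. Interferon-stimulated genes had a median of 0.87 against -0.43 to 0.66, and GIMAP genes 0.50 against -0.03 to 0.51. Each culture is 1 library per day, and none of these differences was tested.

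**Figure D5:**
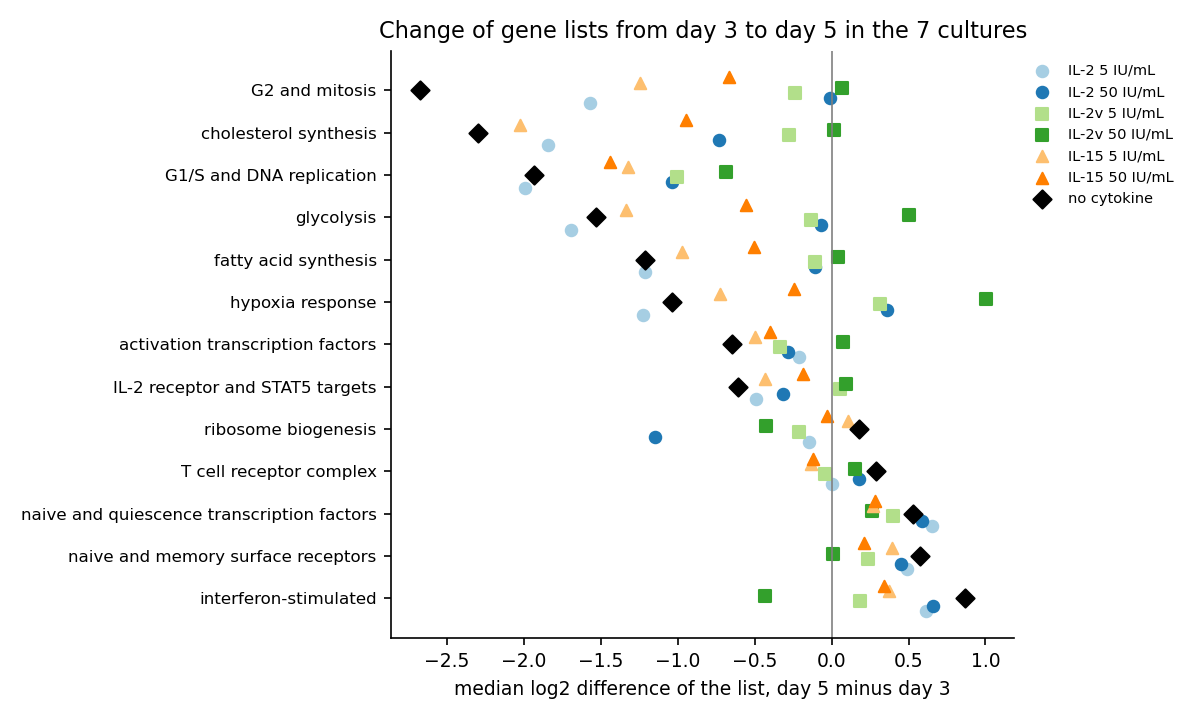
Median log2 difference, day 5 minus day 3, of 13 gene lists without cytokine (black diamonds) and in the 6 cultures with IL-2 (circles), IL-2v (squares) or IL-15 (triangles), points of a list being spread vertically for legibility. Without cytokine the G2 and mitosis median of -2.68 lies below all 6 others, while the glycolysis median of -1.53 lies above that of IL-2 at 5 IU/mL (-1.70).

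Single genes showed the same range of patterns. Mki67 differed by -3.35 without cytokine and by -1.94 to 0.35 with it, Gzmb by -3.74 against -2.57 to 0.33 and Il7r by 2.34 against -1.14 to 1.84. Bcl2 differed by -0.46 against -0.33 to 1.63, and Vmp1 by 0.45 against -0.43 to -0.10. For Mki67, Gzmb and Il7r the change without cytokine lay outside the range of the 6 cultures, as it did for Bcl2 and Vmp1, whose changes were under 2-fold. These genes were all named by their change without cytokine, which favours such an outcome. Ifi214 rose by 2.70 against 0.86 to 4.03 and Dapl1 differed by -1.08 against -1.23 to -0.25, both within the range. The values of 4.03 and -1.23 were from IL-2 at 50 IU/mL, where the day 3 levels were already lower. Ifi214 stood there at 2.24 CPM and Dapl1 at 45.7 CPM at day 3, against 23.8 and 227 CPM without cytokine.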

How the data were processed

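Single-cell RNA of cultured OT1 CD8 T cells was measured in 21 libraries, 1 per condition, with no replicates. The authors deposited a table of raw UMI counts of 17516 genes by cell for each library. Per the submitters' processing notes Cell Ranger, Seurat 3.0.2 and 4.0.1 and build mm10 were used, and steps and order were not given in the sources used here. Day 7 was not analysed here.

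The cells used had 1000 or more UMIs, 500 or more detected genes and a mitochondrial share of up to 10%, and no doublet caller was run. Counts were summed per library and scaled to CPM, which is relative to total RNA, so RNA content per cell is not measured. Differences are of log2(CPM + 1) between genes with at least 20 CPM in either library, and a call is 2-fold. Shares of cells come from cells thinned to 2000 UMIs (seeded), with exact Clopper-Pearson 95% intervals, and levels have exact Poisson intervals. Ratios of UMI counts without replicates cover counting error only. TMM factors came from edgeR 4.0.16 (R 4.3.3), other steps from Python 3.11.15 with scipy 1.17.1 and pandas 2.3.3. Near-identical copies were found with blastn 2.17.0. The last 400 bases of the longest transcript of each gene had to align over at least 50% with at least 97% identity. Coordinates and overlaps are from GENCODE vM21 (GRCm38) and windows from RefSeq (GRCm38.p6), both matched by symbol. The comparison code was tested on simulated data.

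The cells, the 31 lists and the comparisons were chosen with earlier results of these data known. Named genes are those with at least 100 CPM among the 10 lowest and 10 highest, the 8 raised and the 8 lowered genes that reverted most and least, and list members.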

Additional observations from a re-analysis of the deposited data

Results flagged for a closer look

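Itgb3, the integrin beta chain that pairs with alpha V, was lower at day 5 without cytokine and had a difference of the opposite sign, near 0 in the least changed of them, in all 6 cultures with cytokine. It stood at 16.5 CPM in naive cells, 34.4 CPM at day 3 and 14.3 CPM at day 5 without cytokine, a difference of -1.21. With cytokine the difference between the same days was between 0.04 and 1.43. The difference between the cultures was not tested, and Itgb3 was singled out after its values were seen.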

How the results depend on the processing

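No paired analysis was possible because each condition has 1 library. Lower genes outnumbered higher ones under every alternative run, and the cycling share was lower at day 5 than at day 3 under each rule. The lists and genes kept their direction in most cases: 353 of 372 values of list medians and 417 of 428 values of named genes, and 268 of 272 values of 2-fold genes were still 2-fold. Restricting to cells without a Mki67 or Top2a UMI gave 274 genes lower and 211 raised genes that fell. A pseudocount of 10 CPM gave 112 higher, 47 lowered genes that rose and 167 still 2-fold from naive. With no expression filter the counts were 1305 lower, 358 higher, 968 raised that fell, 187 lowered that rose and 809 still 2-fold from naive. At 1.5-fold they were 1060, 723, 779, 452 and 1100. The main counts were 548, 209, 432, 113 and 377. The share of cycling cells at day 3 and day 5 was 39.4% and 4.56% at 1000 UMIs, 59.96% and 13.8% without thinning, and 84.0% and 64.8% when cycling meant at least 3 UMIs of the G2 and mitosis list, a rule that also takes 49.5% of naive cells. Leaving out Malat1 from the totals (536 and 227) or genes with near-identical copies (520 and 194) was chosen after the data were seen. Genes under 20 CPM on both days were not counted among calls.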

Other observations

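Replication-dependent histone genes fell as well. Of 18 tested clustered histone genes, which encode the histones made in S phase, 12 were at least 2-fold lower at day 5 and 0 higher, with a median of -1.72. Hist1h2ap stood at 109 CPM in naive cells, 1758 CPM at day 3 and 30.3 CPM at day 5, the lowest difference of the comparison (-5.81), and Hist1h2ae at 19.2 CPM in naive cells, 235 CPM at day 3 and 14.7 CPM at day 5. Both were lower at day 5 than in naive cells. For 10 of the 18 a near-identical copy exists, so the value of a single histone gene is uncertain. Hist1h1b, a linker histone with no such copy, stood at 16.5 CPM in naive cells, 276 CPM at day 3 and 87.4 CPM at day 5. This family was put together after its values had been seen.

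The Ifi2 genes on chromosome 1, which encode AIM2-like sensors of DNA, moved together: 6 of 6 tested members were at least 2-fold higher at day 5, with a median of 2.18, and this family too was formed after seeing the values. Ifi213 stood at 69.6 CPM in naive cells, 9.26 CPM at day 3 and 91.5 CPM at day 5 and Ifi208 at 81.4 CPM in naive cells, 13 CPM at day 3 and 62.5 CPM at day 5. Both were lowest at day 3. Ifi213 differed by -0.28 to 3.48 in the cultures with cytokine and Ifi208 by 0.64 to 2.94, so a rise was not confined to the culture without cytokine.

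Malat1, a nuclear long non-coding RNA, stood at 21271 CPM in naive cells, 8258 CPM at day 3 and 26631 CPM at day 5, low at day 3 only. Hist1h4h, with 13.2 CPM in naive cells, 41.2 CPM at day 3 and 11.1 CPM at day 5, was like Itgb3 a called gene whose difference had the opposite sign in all 6 cultures with cytokine (0.03 to 0.83).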
